A study of Caenorhabditis elegans with 14 samples.

Results

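The miRNAs described here are the 28 Caenorhabditis elegans miRNAs named miR-8186 to miR-8212, with miR-8196a and miR-8196b sharing a number. They were chosen by name alone: every mature arm in the miRNA class whose name holds a number of this range was taken. This gave 58 rows for 56 arms, because both arms of miR-8186 are listed at 2 loci, out of 450 miRNA rows and 23869 small RNA features in all. Small RNAs were sequenced from whole gravid adults of the N2 strain (wild-type) and of pash-1(ram33[G179R]) mutants. Animals were grown for 72 h at 20 °C (3 libraries per strain) or for 54 h at 25 °C (4 libraries per strain), and growth time therefore changed with temperature. The mutants carry 1 allele of pash-1, a substitution of a glycine in the WW domain of the Pasha protein, in every cell of the animal, and no rescued strain was analysed here. Fewer cells of a type and less RNA per cell cannot be told apart in whole animals. Per the study, mutants grown at 25 °C had fewer progeny than wild-type and were often sterile. Its authors state that developmental defects at 25 °C restrict what can be read from single miRNAs.

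Most miRNAs are cut from a primary transcript by the Microprocessor, in which the ribonuclease Drosha works with the RNA-binding protein Pasha. Dicer then frees a duplex of a 5p and a 3p arm, of which one is usually kept by an Argonaute. Mirtrons are an exception, because splicing and not Drosha sets the ends of their hairpins. The miRNAs of this number range were added to the worm annotation late and are little characterised, so the comparison of the strains asks how their levels change when a Microprocessor component is mutated.

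The libraries were of similar depth. From the value of a single read, each held an estimated 16400000 to 23500000 reads, so that 3 reads, taken as the limit that a count of 0 allows, corresponded to 0.127 to 0.183 rpm (reads scaled to a common library size). Fold changes below were taken after rescaling rpm to the median ratio across features. Without it, the median log2 fold change of all features was 0.36 higher at 20 °C and 0.57 higher at 25 °C, and several values in rpm therefore look larger in mutants than their fold change. Markers of tissues also moved with strain, and their part in the results was not tested. The summed miR-35-3p to miR-41-3p, made in embryos and the germline, ran from 168081 to 187007 rpm in wild-type and from 90015 to 102026 rpm in mutants at 20 °C, and from 191067 to 214582 against 58151 to 69631 rpm at 25 °C. All piRNAs together, a germline class, ran from 71730 to 81153 rpm in wild-type and 87831 to 100531 rpm in mutants at 20 °C, and from 39460 to 44540 against 73966 to 85750 rpm at 25 °C. CSR-class 22G-RNAs together, another germline class, ran from 12847 to 14240 rpm in wild-type and 14990 to 16696 rpm in mutants at 20 °C. At 25 °C they went the other way, from 14906.5 to 17553 rpm in wild-type against 12996 to 14623 rpm in mutants. The muscle miRNA miR-1-3p, the seam cell miRNA let-7-5p, the neuronal miR-124-3p and the intestinal miR-60-3p were all present in every group, with means of 201369, 3739, 2.90 and 895 rpm in wild-type at 20 °C. The strains overlapped at both temperatures in rpm of miR-1-3p, let-7-5p and miR-60-3p. After rescaling, let-7-5p (log2 fold change -0.57 ± 0.03, adjusted p = 7.42e-14, limma without a limit on abundance) was lower in mutants at 25 °C. So was miR-1-3p (-0.50 ± 0.11, adjusted p = 0.0118), and neither was called at 20 °C. The same fit called miR-60-3p lower at 20 °C (-0.48 ± 0.08, adjusted p = 2.95e-05). It also called this arm lower at 25 °C (-0.76 ± 0.13, adjusted p = 0.00355). miR-124-3p ran from 2.16 to 3.97 rpm in wild-type and from 3.36 to 5.84 rpm in mutants at 20 °C, and from 2.27 to 3.62 against 5.49 to 7.66 rpm at 25 °C. Its log2 fold change at 25 °C after rescaling was 0.70 ± 0.18 (adjusted p = 0.00287, limma without a limit on abundance), the same direction as the members that rose. Its partner arm miR-124-5p was lower in mutants at 20 °C (-1.81 ± 0.51, adjusted p = 0.0396) and not called at 25 °C (-0.08 ± 0.35, adjusted p = 0.883).

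In the WBcel235 annotation the 28 miRNAs map to 29 hairpins of 262. 14 lie in introns of protein-coding genes, 11 of them in the sense orientation, 3 overlap an exon and 12 lie outside protein-coding genes. None had both ends within 5 nucleotides of the ends of a sense intron, the arrangement of a mirtron, whereas 8 of all 262 hairpins did, and limits of 2 and 10 nucleotides gave the same counts. The hairpins mir-8186-1 and mir-8186-2 are the opposite strands of a single stretch of chromosome II (18638 to 18698 on the plus strand and 18637 to 18697 on the minus strand). Their rows held identical values in every library, and their reads cannot be told apart. The hairpin mir-8203 lies antisense to mir-786 on chromosome X. For 6 of the 29 hairpins, mir-8192, mir-8196a, mir-8196b, mir-8199, mir-8209 and mir-8210, the annotated gene is longer than the hairpin. The longest is that of mir-8199, a gene of 778 nucleotides also named C40A11.10.

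Few of these arms were abundant. At least 1 read was found in any library for 36 of the 58 rows (62.1%) at 20 °C and for 39 (67.2%) at 25 °C, against 329 (83.9%) and 338 (86.2%) of the 392 other miRNA rows. A mean of at least 1 rpm was reached by 5 rows (8.62%) at 20 °C and 6 (10.3%) at 25 °C, where 228 (58.2%) and 226 (57.7%) of the other rows did. Only miR-8196b-3p and miR-8199-5p averaged at least 5 rpm, at both temperatures. All members together summed to 22.4 to 29.0 rpm in the 7 wild-type libraries and to 42.7 to 63.5 rpm in the 7 mutant libraries, or 0.00276% to 0.00878% of all miRNA rpm.

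19 of the 58 rows had no read in any of the 14 libraries. These included both arms of miR-8187, miR-8188, miR-8194 and miR-8203, which leaves their levels below the limit given above. Among the 28 miRNAs, 13 had reads from both arms, 11 from a single arm and 4 from none. The minor arm made up 35.1% of the estimated reads of miR-8186, 33.1% of miR-8210 and 23.8% of miR-8208. It was 42.1% for miR-8190 (11 reads from the 3p arm and 8 from the 5p arm) and 27.3% for miR-8205 (3 and 8), from few reads. Among the most abundant members it was nearly absent: miR-8199 had 4985 estimated reads from its 5p arm and 2 from its 3p arm, and miR-8196b had 1986 from its 3p arm and 0 from its 5p arm. miR-8196a, miR-8198 and miR-8207 likewise had 434, 599 and 319 reads from the 3p arm and 0 from the 5p arm.

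**Figure D1:**
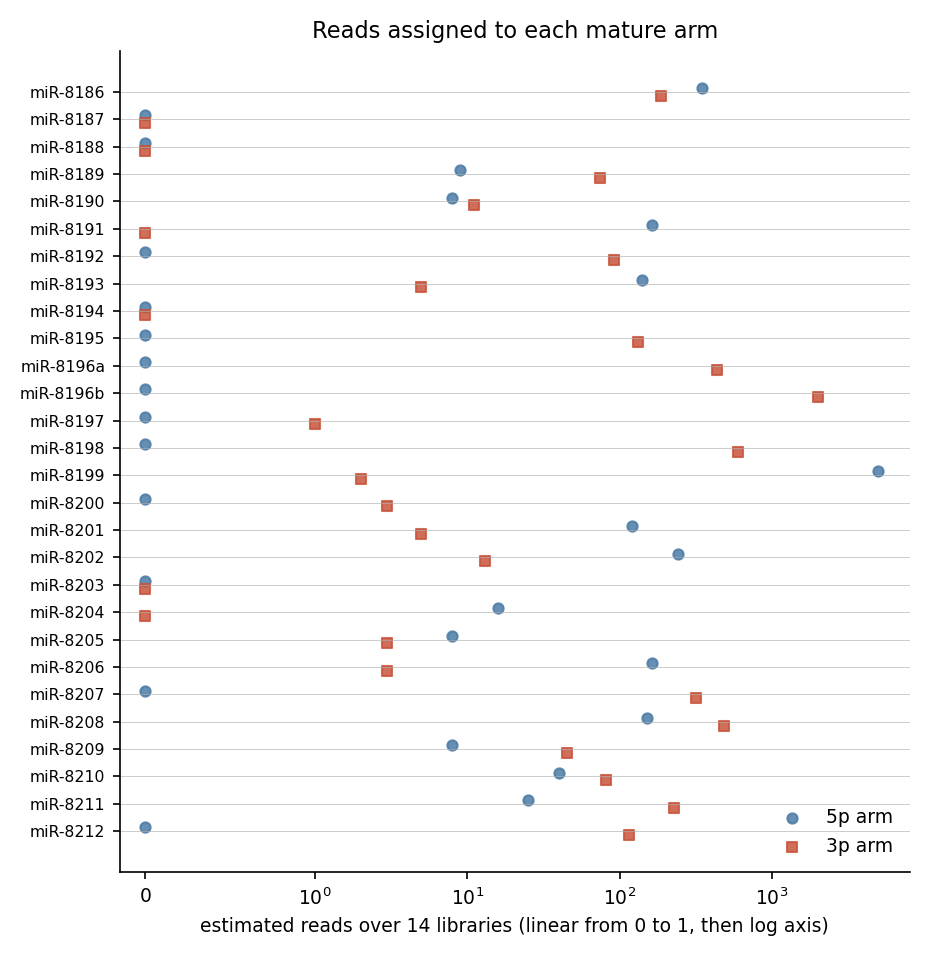
Estimated reads of the 5p arm (circles) and 3p arm (squares) of each of the 28 miRNAs, summed over the 14 libraries, on an axis that is linear from 0 to 1 and logarithmic beyond. miR-8199-5p (4985 reads) and miR-8196b-3p (1986 reads) lead, and both arms of miR-8187, miR-8188, miR-8194 and miR-8203 sit at 0.

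At 20 °C, with the analysis limited to features averaging at least 1 rpm, 3 of the 5 members tested were upregulated in pash-1(ram33[G179R]) mutants and none was downregulated. Across all 7034 features tested, 2.06% were upregulated and 3.84% downregulated by the same rule (limma, Benjamini-Hochberg adjusted p under 0.05), and no member reached an unadjusted p under 0.05 in the downward direction. Their median log2 fold change was 0.75, against -0.01 for all features and -0.48 for the 228 other miRNA rows tested, of which 123 were lower and 22 higher. The limit on abundance bears on this count and median, because miR-8196a-3p passed it only through its level in mutants. Without the limit, the median of the 36 member rows with reads at 20 °C was -0.15. It was -0.35 for the 329 other miRNA rows and 0.05 for all features.

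At 25 °C, 4 of the 6 members tested were upregulated and 0 were downregulated, again with 0 at an unadjusted p under 0.05 in limma. Of the 7070 features tested at this temperature, 33.6% were upregulated and 39.3% downregulated. The members' median log2 fold change was 2.14, against -0.04 for all features and -0.94 for the 226 other miRNA rows, of which 166 were lower and 38 higher. 3 of the 4 upregulated members, miR-8196a-3p, miR-8207-3p and miR-8208-3p, passed the limit only through the mutants. A lower level could not have been seen for them, and the counts and median are given as a description. Without the limit, the median of the 39 member rows with reads at 25 °C was -0.06. It was -0.65 for the 338 other miRNA rows and 0.13 for all features.

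miR-8196b-3p, upregulated at both temperatures, comes from a hairpin on the X chromosome (14324406 to 14324470, minus strand) that lies antisense in an intron of prx-1. At 20 °C the wild-type libraries held 4.32, 3.60 and 4.47 rpm and the mutant libraries 8.85, 10.3 and 10.9 rpm. At 25 °C wild-type held 2.17, 1.81, 1.70 and 1.96 rpm and mutants 11.8, 13.9, 12.2 and 10.4 rpm. Every mutant library was above every wild-type library at both temperatures. The log2 fold change was 0.90 ± 0.18 (SE, adjusted p = 0.000821, limma) at 20 °C and 2.02 ± 0.15 (adjusted p = 1.83e-12) at 25 °C.

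Its namesake miR-8196a-3p comes from a hairpin elsewhere on the X chromosome (2329038 to 2329103, plus strand), which overlaps the 3′ end of the long noncoding RNA gene linc-154. Wild-type libraries held 0.61, 0.36 and 0.98 rpm and mutants 2.04, 2.60 and 1.42 rpm at 20 °C. At 25 °C wild-type held 0.33, 0.27, 0.26 and 0.26 rpm and mutants 3.25, 3.58, 2.63 and 2.92 rpm. The groups did not overlap at either temperature. The log2 fold change was 1.22 ± 0.37 (SE, adjusted p = 0.0417, limma) at 20 °C and 2.56 ± 0.30 (adjusted p = 2.15e-08) at 25 °C. The call at 20 °C was lost without a limit on abundance (adjusted p = 0.0696), with size factors from CSR-class 22G-RNAs (adjusted p = 0.0991) and with a variance model without trend (adjusted p = 0.110), and when wild-type replicate 2 (log2 fold change 0.92) or any 1 of the 3 mutant libraries (1.05 to 1.44) was left out. How many reads the miR-8196a and miR-8196b loci could share was not tested.

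Both miR-8207-3p and miR-8208-3p come from introns of chromosome IV. The hairpin mir-8207 (11722093 to 11722166, plus strand) lies in the sense orientation in an intron of magi-1, 353 nucleotides from its nearer end, and mir-8208 (10856119 to 10856180, plus strand) lies antisense in an intron of T11G6.2. At 25 °C miR-8207-3p measured 0.47, 0.27, 0.26 and 0.09 rpm in wild-type and 2.36, 2.98, 2.84 and 1.86 rpm in mutants. miR-8208-3p measured 0.94, 0.45, 0.57 and 0.30 rpm in wild-type and 5.42, 3.72, 4.26 and 3.67 rpm in mutants. In each case the lowest mutant library was above the highest wild-type library. The log2 fold changes were 2.40 ± 0.36 (SE, adjusted p = 1.42e-06, limma) for miR-8207-3p and 2.25 ± 0.28 (adjusted p = 5.51e-08) for miR-8208-3p.

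At 20 °C both arms averaged less than 1 rpm. miR-8207-3p measured 0.24, 0.18 and 0.44 rpm in wild-type and 1.23, 1.43 and 1.10 rpm in mutants, and miR-8208-3p 0.49, 0.45 and 0.20 against 1.09, 1.06 and 1.37 rpm. The groups were again apart for both arms. Without a limit on abundance miR-8207-3p was called higher (log2 fold change 1.56 ± 0.44, adjusted p = 0.0405, limma) and miR-8208-3p was not (1.15 ± 0.43, adjusted p = 0.227). The call of miR-8207-3p at 20 °C was lost in 5 of the 6 fits that left out 1 library, with CSR-class size factors (adjusted p = 0.0568), with 1 rpm added (0.0816) and without trend (0.116).

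miR-8199-5p, the most abundant member, lies on chromosome II (2136822 to 2136909 for the hairpin, minus strand), and its annotated 5p arm is 19 nucleotides long. At 20 °C wild-type libraries held 6.70, 13.2 and 9.76 rpm and mutants 22.1, 20.7 and 19.4 rpm. At 25 °C wild-type held 16.9, 14.1, 15.6 and 14.03 rpm and mutants 26.4, 21.3, 17.9 and 22.5 rpm. The groups did not overlap in rpm at either temperature. After rescaling it was upregulated at 20 °C (log2 fold change 0.75 ± 0.18, adjusted p = 0.00525, limma) but not at 25 °C (-0.06 ± 0.12, adjusted p = 0.652). The value at 25 °C depended on the scaling: it was 0.53 (adjusted p = 0.000225) with rpm as deposited, 0.81 (2.30e-06) with size factors from CSR-class 22G-RNAs and -0.42 (0.00319) with scaling to all piRNAs. At 20 °C the call was lost with CSR-class size factors (0.91, adjusted p = 0.0538), with a variance model without trend (adjusted p = 0.186) and without mutant replicate 1 (0.66, adjusted p = 0.0687).

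The remaining members that reached 1 rpm were miR-8198-3p, at both temperatures, and miR-8202-5p, at 20 °C. miR-8198-3p measured 1.16, 2.25 and 2.85 rpm in wild-type and 1.81, 3.13 and 2.99 rpm in mutants at 20 °C. At 25 °C it measured 1.46, 1.99, 0.96 and 0.98 rpm in wild-type and 3.06, 2.51, 2.00 and 2.07 rpm in mutants. The strains overlapped at 20 °C and were narrowly apart at 25 °C, and the log2 fold change after rescaling was 0.03 ± 0.29 (SE, adjusted p = 0.970, limma) and 0.28 ± 0.25 (adjusted p = 0.319). With rpm as deposited the change at 25 °C was 0.83 (adjusted p = 0.00495), with CSR-class size factors it was 1.10 (adjusted p = 0.000414), and with scaling to all piRNAs it was -0.07. miR-8202-5p, from an intron of the sodium leak channel gene unc-77, measured 1.28, 0.59 and 1.57 rpm in wild-type and 1.91, 2.17 and 1.16 rpm in mutants at 20 °C, with overlapping groups and a log2 fold change of 0.28 ± 0.35 (adjusted p = 0.720).

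**Figure D2:**
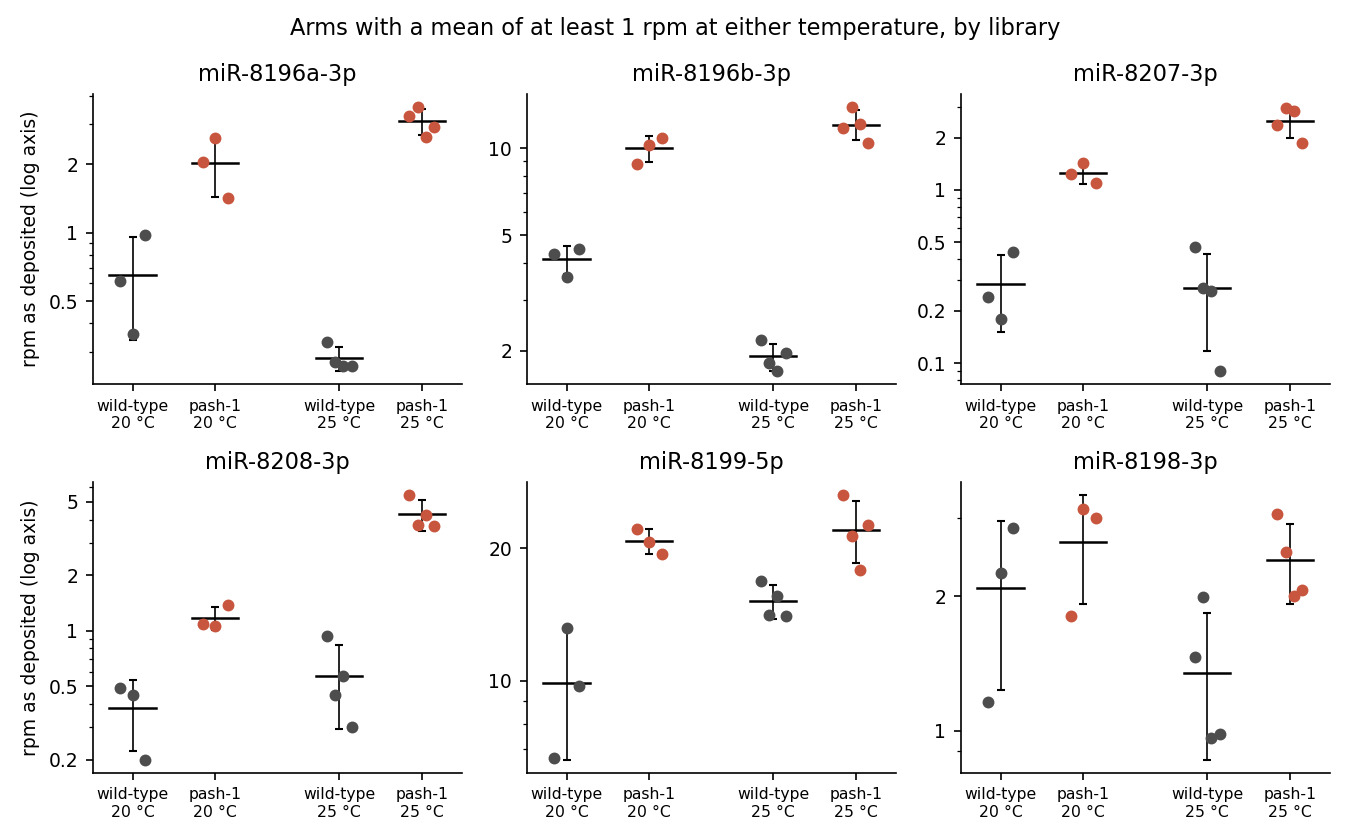
Deposited rpm of 6 arms in each library (points; log axes that differ between panels), with the mean (line) and SD (bars), for 3 libraries per strain at 20 °C and 4 at 25 °C. Mutant libraries lie above all wild-type libraries at both temperatures for miR-8196a-3p, miR-8196b-3p, miR-8207-3p, miR-8208-3p and miR-8199-5p, and overlap them at 20 °C for miR-8198-3p.

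A difference in the strain effect between the temperatures was tested as an interaction for the 4 members that averaged at least 1 rpm in both tables. miR-8196a-3p met this limit only through the mutants, with wild-type means of 0.65 rpm at 20 °C and 0.28 rpm at 25 °C. It could therefore enter the test only as an arm that is higher in mutants. The increase was larger at 25 °C for miR-8196a-3p (difference of log2 fold changes 1.34 ± 0.46, adjusted p = 0.0219, limma) and for miR-8196b-3p (1.12 ± 0.23, adjusted p = 0.000271). It was smaller at 25 °C for miR-8199-5p (-0.81 ± 0.22, adjusted p = 0.00481) and did not pass for miR-8198-3p (0.25 ± 0.39, adjusted p = 0.634). Among the 6396 features tested, 15.5% had a more positive and 22.5% a more negative effect at 25 °C. The difference for miR-8199-5p was not called with CSR-class size factors (-0.09, adjusted p = 0.809), and that for miR-8196a-3p was not called with scaling to all piRNAs (0.96, adjusted p = 0.0981) or without wild-type replicate 3 (1.07) or mutant replicate 3 (1.12) of 20 °C.

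Reads at these hairpins were not limited to the annotated mature arms. The pipeline counted reads that start 1 to 3 nucleotides from an arm's 5′ end as iso-miRs, and other reads as pre-miRNA. Whether the pre-miRNA row covers the hairpin alone or the longer annotated gene, where there is one, is not given in the sources used here. For miR-8196a-3p the iso-miR row was far above the mature row. It held 16.9, 17.4 and 21.7 rpm in wild-type and 63.0, 62.9 and 57.2 rpm in mutants at 20 °C. At 25 °C it held 23.1, 20.3, 17.2 and 19.2 rpm in wild-type and 117, 107, 117 and 109 rpm in mutants. The strains were far apart, with log2 fold changes of 1.35 ± 0.12 (SE, adjusted p = 2.11e-10, limma) and 1.91 ± 0.09 (adjusted p = 5.09e-18). Iso-miRs made up 95.7% to 98.7% of mature plus iso-miR reads of miR-8196a across the 14 libraries, and 1.37% to 13.3% of those of miR-8196b.

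The largest share of reads at both mir-8196 hairpins fell to the pre-miRNA row. For mir-8196a it held 101, 110 and 111 rpm in wild-type and 157, 194 and 186 rpm in mutants at 20 °C. At 25 °C it held 347, 389, 388 and 386 rpm in wild-type and 812, 845, 848 and 862 rpm in mutants. The log2 fold changes after rescaling were 0.37 ± 0.10 (SE, adjusted p = 0.0200, limma) and 0.57 ± 0.07 (adjusted p = 2.37e-08). For mir-8196b the corresponding changes were 0.07 ± 0.14 (adjusted p = 0.822) and 0.45 ± 0.08 (adjusted p = 8.54e-06), from 15.5 to 18.4 rpm in wild-type and 19.7 to 25.4 rpm in mutants at 20 °C and from 45.3 to 55.7 against 92.7 to 112 rpm at 25 °C. Mature reads were 17.7% to 21.7% of all reads at mir-8196b in wild-type and 28.6% to 30.9% in mutants at 20 °C, and 3.15% to 4.33% against 9.73% to 11.8% at 25 °C.

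The ratio of iso-miR to mature reads could be tested for 3 members at 20 °C and 4 at 25 °C. At 25 °C, 3 of the 4 passed the limit of 0.5 rpm only through the mutants, with wild-type means of 0.28 rpm for mature miR-8196a-3p, 0.12 rpm for iso-miRs of miR-8196b-3p and 0.09 rpm for iso-miRs of miR-8208-3p. At 20 °C none was called, with 0 at an unadjusted p under 0.05 in limma, where 0% of 132 arms were called. At 25 °C miR-8196a-3p was called (log2 change of the ratio -0.57 ± 0.12, adjusted p = 0.0186), where 22% of 141 arms were called. Its mature level in wild-type, 0.26 to 0.33 rpm, is close to the 0.1 rpm added before taking the log, and adding 1 rpm turned the change to 0.77 (adjusted p = 0.000763). The call was also lost without wild-type replicate 1 (-0.56), 2 (-0.55) or 4 (-0.56) of 25 °C.

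At mir-8199 there were also rows of 3 other classes. The pre-miRNA row held 16.8, 20.4 and 24.4 rpm in wild-type and 54.5, 58.3 and 46.1 rpm in mutants at 20 °C, a log2 fold change of 1.01 ± 0.13 (SE, adjusted p = 4.44e-07, limma). The 25 °C libraries held 33.3, 37.9, 37.6 and 31.6 rpm in wild-type and 60.0, 48.2, 51.0 and 52.1 rpm in mutants, a change of 0.00 ± 0.09 (adjusted p = 0.985). The same gene has a row of ERGO-class 26G-RNAs, small RNAs made antisense to their target transcripts and bound by the Argonaute ERGO-1. This row held 7.19, 10.8 and 9.86 rpm in wild-type and 21.6, 23.0 and 22.2 rpm in mutants at 20 °C (log2 fold change 0.91 ± 0.15, adjusted p = 5.31e-05). In the 25 °C libraries it held 14.7, 14.7, 10.5 and 12.5 rpm in wild-type and 20.6, 18.7, 16.6 and 18.8 rpm in mutants (-0.07 ± 0.11, adjusted p = 0.588). The gene also has a row of WAGO-class 22G-RNAs, small RNAs made by RNA-dependent RNA polymerase and bound by worm-specific Argonautes. This row held 0.52, 0.47 and 0.69 rpm in wild-type and 1.00, 1.72 and 1.89 rpm in mutants at 20 °C, without overlap, and was not called (0.95 ± 0.39, adjusted p = 0.169). In the 25 °C libraries it held 1.61, 1.90, 1.76 and 0.91 rpm in wild-type and 1.01, 1.81, 1.00 and 0.32 rpm in mutants, which overlapped, and it was called lower after rescaling (-1.22 ± 0.34, adjusted p = 0.00256). The mature, pre-miRNA and 26G rows were thus higher in mutants at 20 °C and not called at 25 °C, whereas the 22G row was not called at 20 °C and was lower at 25 °C. The difference between temperatures was called for the pre-miRNA row (-1.01 ± 0.16, adjusted p = 1.15e-05), the 26G row (-0.98 ± 0.19, adjusted p = 0.000127) and the 22G row (-2.17 ± 0.52, adjusted p = 0.00150), as for the mature arm. All of these calls are for rescaling to the median ratio. In rpm, every mutant library at 25 °C was above every wild-type library for the mature, pre-miRNA and 26G rows. CSR-class size factors raised the median log2 fold change of all features by 0.16 at 20 °C and 0.85 at 25 °C. With them the difference for the mature arm was not called, and results for the other rows are not given here. Among all ERGO-class rows, 16 of 48 tested were higher and 1 lower at 20 °C (median log2 fold change 0.42), and 1 of 46 was higher and 17 lower at 25 °C (median -0.23). Of all features of at least 1 rpm, 2.06% were higher and 3.84% lower at 20 °C, and 33.6% higher and 39.3% lower at 25 °C. The share of ERGO-class rows lower at 25 °C was thus near that of all features. The share higher was above that of all features at 20 °C and below it at 25 °C. No other member gene has a row in these classes.

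Mature reads were 25.8% to 38.97% of the miRNA-class reads at mir-8199 across all libraries. At mir-8207 and mir-8208 the pre-miRNA row held next to nothing. It was 0 in all 14 libraries for mir-8208, and mature reads were 56.5% to 88.6% of that hairpin's reads, the rest being iso-miRs. The iso-miR row of miR-8208-3p held 0.04 to 0.14 rpm in wild-type and 0.99 to 2.05 rpm in mutants at 25 °C, without overlap (log2 fold change 2.70, adjusted p = 2.91e-06, limma without a limit on abundance).

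**Figure D3:**
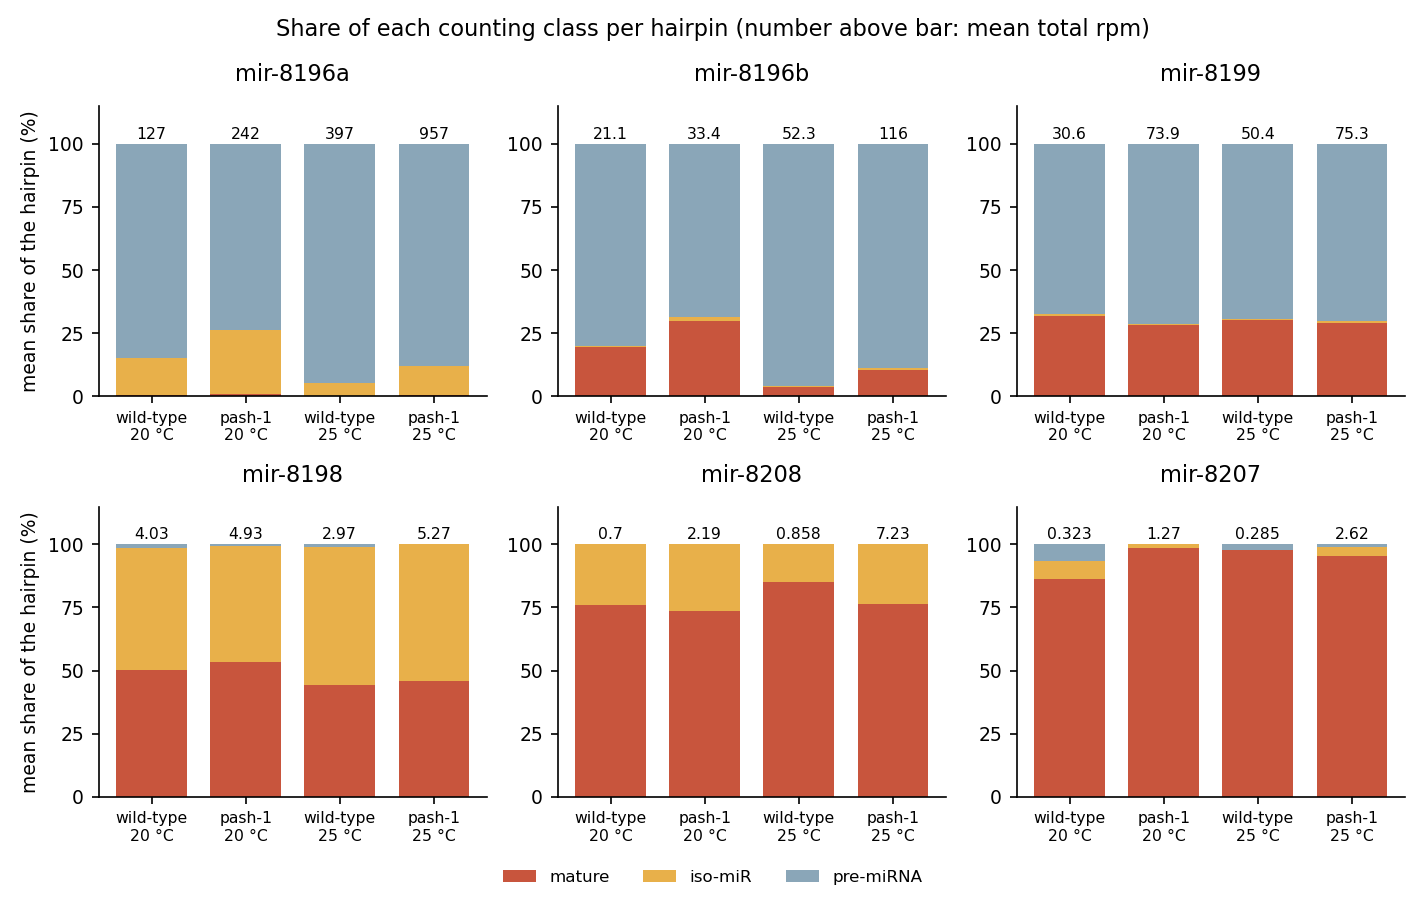
Mean share (%) of mature, iso-miR and pre-miRNA reads at 6 hairpins by strain (wild-type or pash-1 mutant) at 20 °C (n = 3 per strain) and 25 °C (n = 4 per strain), with the mean total rpm above each bar. Pre-miRNA reads lead at mir-8196a, mir-8196b and mir-8199, and mature reads lead at mir-8207 and mir-8208.

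The hairpin mir-8198 (chromosome IV, 16214390 to 16214461, minus strand) overlaps 3 annotated piRNAs on its own strand. piRNAs, or 21U-RNAs in worms, are germline small RNAs that are made without Drosha and Dicer. 21ur-5348 starts 1 nucleotide upstream and 21ur-6991 3 nucleotides downstream of the 5′ end of miR-8198-3p, and 21ur-5102 starts 3 nucleotides upstream of that of miR-8198-5p. All 3 start sites fall within the iso-miR window, which was counted before piRNAs, and the 3 piRNA rows were listed at 0 in all 14 libraries. The iso-miR row of miR-8198-3p held 1.83, 1.85 and 1.96 rpm in wild-type and 1.81, 2.07 and 2.94 rpm in mutants at 20 °C, and 1.39 to 1.81 against 2.36 to 3.72 rpm at 25 °C. Iso-miRs were 39.8% to 64.2% of mature plus iso-miR reads. The log2 fold changes of this row were -0.11 ± 0.27 (adjusted p = 0.863, limma) and 0.25 ± 0.22 (adjusted p = 0.313). How much of this signal comes from piRNAs was not tested. Of the other 233 hairpins, 2 overlap a piRNA on the same strand.

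Members that fell all averaged below 1 rpm over both strains, and were seen only when the limit on abundance was dropped. Of these, miR-8193-5p at 20 °C and miR-8206-5p at 25 °C averaged 1.25 and 1.26 rpm in wild-type and missed the limit only through their level in mutants. Each feature with a read in any library was then tested, which gave 36 member rows at 20 °C and 39 at 25 °C. The arms named in the next paragraphs were singled out after their values were seen. Whether groups overlap is given, here and above, as a description, and the share of all features without overlap was not taken. Of the member rows, 3 were downregulated (8.33%) and 3 upregulated (8.33%) at 20 °C, where 1.33% of all 19250 features were downregulated and 0.655% upregulated. At 25 °C 7 were downregulated (17.9%) and 10 upregulated (25.6%), where 15.8% of 19540 features were downregulated and 18.3% upregulated, so that the members' shares were near those of all features. The 10 upregulated rows stand for 8 arms, since both arms of miR-8186 count at each of their loci. With 0.1 rpm added, fold changes of such low rows are understated.

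miR-8212-3p, miR-8193-5p and miR-8206-5p were downregulated at both temperatures, and at 20 °C without trend in the variance model only miR-8212-3p was. miR-8212-3p, whose hairpin lies in the sense orientation in an intron of F07A11.4, measured 0.97, 0.77 and 1.03 rpm in wild-type and 0.09, 0.05 and 0 rpm in mutants at 20 °C. This is 54 estimated reads against 3, a ratio of 18.3 (exact 95% interval 5.94 to 91.6, for counting error only), and a log2 fold change of -3.05 ± 0.52 (adjusted p = 4.42e-05, limma). The 25 °C libraries measured 0.47, 0.72, 0.70 and 0.34 rpm in wild-type and 0.09, 0, 0.21 and 0.11 rpm in mutants (-2.13 ± 0.44, adjusted p = 0.000338). All mutant libraries were below all wild-type libraries at both temperatures.

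miR-8193-5p, from a sense intron of dmsr-2, measured 1.16, 0.86 and 1.72 rpm in wild-type and 0.18, 0.32 and 0.32 rpm in mutants at 20 °C (-2.13 ± 0.44 on the log2 scale, adjusted p = 0.00102, limma), a call lost with a variance model without trend (adjusted p = 0.0594). In the 25 °C libraries it measured 0.43, 0.81, 0.22 and 0.77 rpm in wild-type, and in mutants a single estimated read in replicate 2, against 50 reads in wild-type (ratio 44.8, exact 95% interval 7.67 to 1803, and a log2 fold change of -2.72 ± 0.46, adjusted p = 2.50e-05). The groups were apart at both temperatures.

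miR-8206-5p, from a hairpin outside protein-coding genes on chromosome III (6194849 to 6194906, minus strand), measured 0.97, 0.41 and 0.64 rpm in wild-type and 0.05, 0.37 and 0.05 rpm in mutants at 20 °C. Its log2 fold change there was -2.01 ± 0.54 (adjusted p = 0.0272, limma), a call lost in 3 of the 6 fits that left out 1 library (adjusted p from 0.182 to 0.190 without wild-type replicate 1, mutant replicate 1 or mutant replicate 3). It was also lost with CSR-class size factors (adjusted p = 0.124), with 1 rpm added (0.108) and without trend (0.247). At 25 °C it measured 0.57, 1.63, 1.87 and 0.98 rpm in wild-type and 0.05, 0, 0.05 and 0 rpm in mutants, 114 estimated reads against 2 (ratio 51.0, exact 95% interval 13.8 to 426, and log2 fold change -3.67 ± 0.43, adjusted p = 1.12e-07). Here the pre-miRNA row moved the opposite way. At 25 °C it held 0, 0.05, 0 and 0.04 rpm in wild-type and 0.33, 0.37, 0.32 and 0.32 rpm in mutants (log2 fold change 1.59, adjusted p = 0.00470). No library at 20 °C held more than 0.05 rpm of it.

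At 25 °C alone, 4 further arms were downregulated. miR-8189-3p, from a hairpin outside protein-coding genes, measured 0.71, 0.29, 0.46 and 0.27 rpm in wild-type and 0, 0.05, 0.07 and 0.05 rpm in mutants (38 estimated reads against 3, ratio 11.3, exact 95% interval 3.60 to 57.4, and log2 fold change -2.17 ± 0.45, adjusted p = 0.000312, limma). miR-8195-3p, antisense to an exon of tsr-1, measured 0.61, 0.59, 0.57 and 0.51 rpm in wild-type and 0.28, 0.19, 0.21 and 0.16 rpm in mutants (-1.57 ± 0.39, adjusted p = 0.00192), a call lost with CSR-class size factors (-0.90, adjusted p = 0.0590). In both arms every mutant library was below every wild-type library. miR-8210-3p, from an intron of slc-25A29, measured 0.35, 0.50, 0.30 and 0.55 rpm in wild-type and 0, 0.09, 0 and 0.43 rpm in mutants, with overlap (-1.86 ± 0.49, adjusted p = 0.00341). miR-8190-3p had 7 estimated reads in wild-type and 0 in mutants, with overlap (-0.87 ± 0.33, adjusted p = 0.0445). When 3 reads over the group stand for 0 this is 2.09-fold lower, and the exact 95% interval for counting error starts at 1.29. That call was lost in 6 of the 8 fits that left out 1 library, and in 9 of all alternatives tried. The 4 values at 20 °C, from -1.59 for miR-8189-3p to -0.38 for miR-8190-3p on the log2 scale, did not pass.

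**Figure D4:**
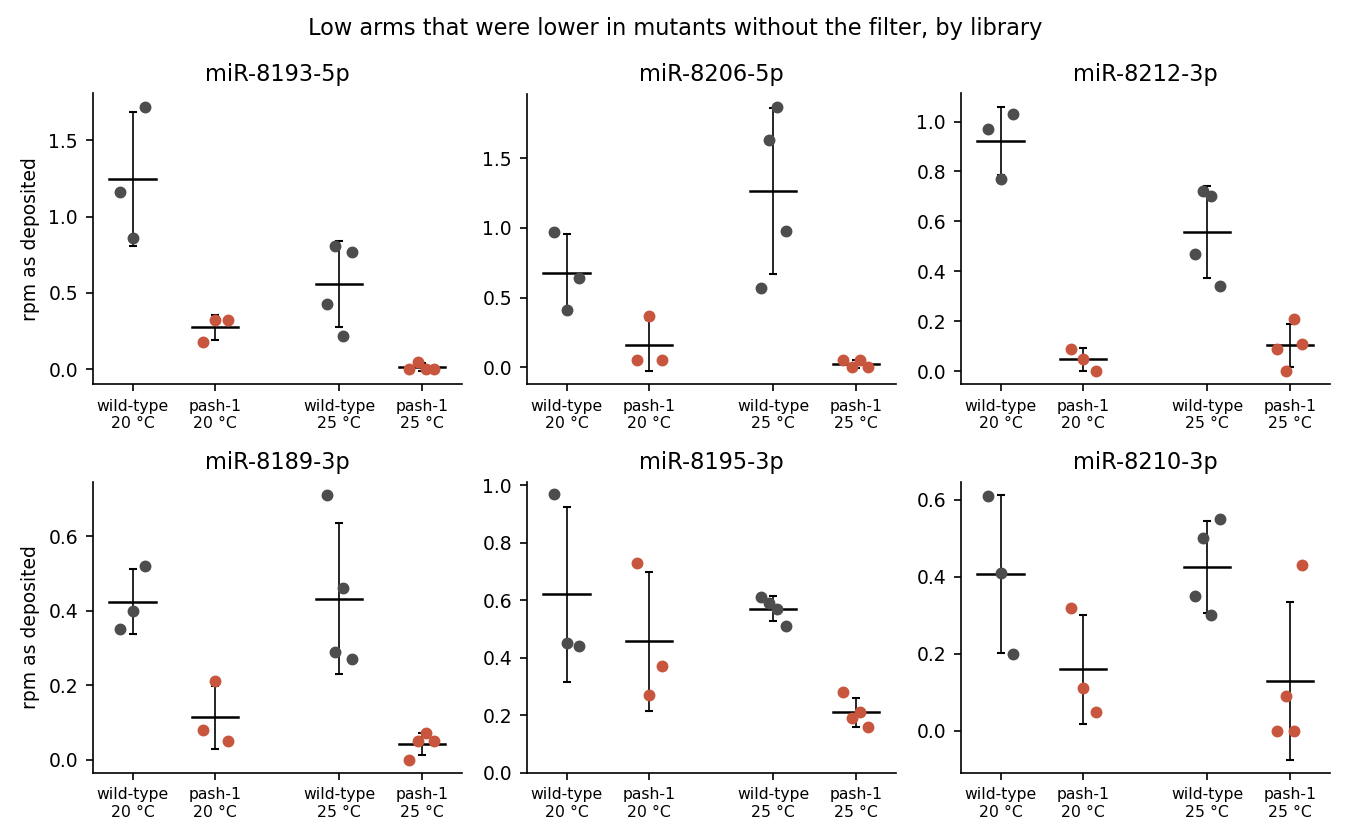
Deposited rpm of 6 low arms in each library (points), with the mean (line) and SD (bars), for 3 libraries per strain at 20 °C and 4 at 25 °C; 1 read is 0.0425 to 0.0609 rpm. At 25 °C all mutant libraries lie below all wild-type libraries for every arm shown except miR-8210-3p.

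Among low arms that rose at 25 °C, miR-8186-5p measured 0.35, 0.25, 0.20 and 0.23 rpm per locus in wild-type and 1.18, 1.51, 1.26 and 1.62 rpm in mutants (log2 fold change 1.58 ± 0.34, adjusted p = 0.000521, limma). miR-8186-3p rose by 1.09 ± 0.41 (adjusted p = 0.0387), a call lost in 7 of the 8 fits that left out 1 library. Over all alternatives tried, that call was lost in 9. miR-8211-3p, which overlaps an exon of Y56A3A.7, measured 0.43, 0.27, 0.57 and 0.09 rpm in wild-type and 1.60, 1.30, 1.63 and 1.49 rpm in mutants (1.52 ± 0.38, adjusted p = 0.00232). miR-8208-5p, the partner arm of miR-8208-3p, measured 0.14, 0.27, 0.13 and 0.13 rpm in wild-type and 1.23, 0.37, 1.63 and 1.91 rpm in mutants (1.77 ± 0.43, adjusted p = 0.00184). The groups were apart for each of these 4 arms, which were picked because they were called, so this adds no separate support. None of them was called at 20 °C, where the log2 fold changes were -0.10 for miR-8186-3p, 0.31 for miR-8186-5p, 0.13 for miR-8211-3p and 0.62 for miR-8208-5p.

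No member was called in opposite directions at the 2 temperatures. Without a limit on abundance, 3 rows were lower at both, 2 were higher at both (miR-8196b-3p and miR-8207-3p), 1 was higher at 20 °C alone (miR-8199-5p), 8 were higher and 4 lower at 25 °C alone, and 18 tested at both were called at neither. A further 3 rows had reads at 25 °C alone and were not called. The 8 rows higher at 25 °C alone include both arms of miR-8186 at each of their loci. Of all features at 25 °C, 18.3% were called higher and 15.8% lower. The share of all features in each of these joint classes was not taken, and the counts are given as a description. A call at a single temperature does not by itself show a difference between temperatures, which was tested above for 4 arms.

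**Figure D5:**
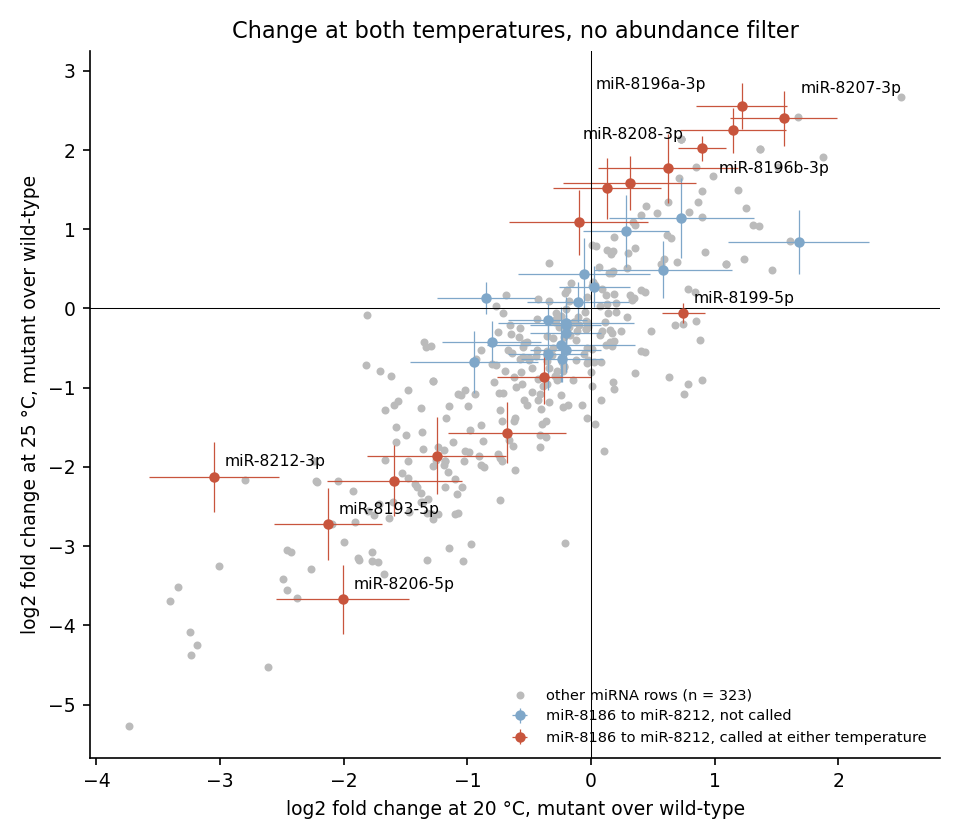
Log2 fold change (mutant over wild-type, after rescaling, no limit on abundance) at 20 °C on the x axis and 25 °C on the y axis for member arms (bars: SE) over the 323 other miRNA rows with reads at both temperatures (grey). miR-8196a-3p, miR-8207-3p, miR-8208-3p and miR-8196b-3p lie at the upper right, miR-8206-5p, miR-8193-5p and miR-8212-3p at the lower left, and miR-8199-5p near 0 at 25 °C.

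The other miRNAs give the scale for these counts. Among miRNA rows that averaged less than 1 rpm, tested without a limit on abundance, 3 of 31 members were lower (9.68%) and 1 higher (3.23%) at 20 °C, against 7 of 101 other rows lower (6.93%) and 1 higher (0.990%). At 25 °C 7 of 33 members were lower (21.2%) and 6 higher (18.2%), against 22 of 112 other rows lower (19.6%) and 9 higher (8.04%). Their medians were -0.21 for members and -0.21 for the others at 20 °C, and -0.19 and -0.27 at 25 °C. Among rows of at least 1 rpm, the 11 mirtron arms, the usual examples of Drosha-independent processing, had 5 of 6 tested rows higher at 20 °C (median 0.79) and 7 of 7 at 25 °C (median 1.65), with 0 lower. The miR-1829 family with miR-4812 had 8 of 8 higher at each temperature (medians 1.09 and 1.10). The miRNAs from miR-4800 to miR-5599 that belong to neither list had 10 of 15 lower and 1 higher at 20 °C (median -1.18), and 9 of 14 lower and 4 higher at 25 °C (median -2.17). These lists were compared by their counts and medians only.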

How the data were processed

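The authors deposited rpm values for 14 libraries. Per the study's methods, fastp trimmed the reads, bowtie aligned them to the WS279 genome and tinyRNA assigned them to features, with miRNAs and iso-miRs taken before pre-miRNAs and pre-miRNAs before piRNAs and 22G or 26G classes, and rpm was scaled to library size by the authors. At 20 °C the classes stood 1 line away from their features and were moved back, and all 23869 then matched those at 25 °C. Size factors were taken per table as the median of ratios. Features averaging at least 1 rpm were tested on log2(rpm + 0.1) with limma 3.58.1 (trend and robust, R 4.3.3), adjusted by Benjamini-Hochberg over all features at a threshold of 0.05. Iso-miR to mature ratios were tested where both averaged at least 0.5 rpm. Fold changes are on this log scale, which understates those of low rows. In each library, 89.7% to 92.1% of low values were whole multiples of 1 read (within 0.0055 rpm), which was not taken as complete, so no count test was run and read numbers are estimates. Every member of at least 1 rpm is named, with values for those called or above 5 rpm. The members and lists were chosen with earlier results of these data known. Replicates are called biological in the study, but the labels do not name separate cultures, and p-values measure the spread between these libraries. No 2 replicates agreed within sampling noise (median chi-square 1.17 to 2.01 per feature, where 0.455 is the value for counting noise alone). The tests were tried on simulated libraries that held no shift in scale between the strains, and their outcome is not used as support here. Positions are from WBcel235 (Ensembl 115), and summaries and plots were made with Python 3.11.15 (pandas 2.3.3, numpy 2.4.6, matplotlib 3.10.9, scipy 1.17.1). Alternatives varied the pseudocount, the limit on abundance, the scaling, the variance model, a replicate block and each library in turn, and those for the fit without a limit were added after seeing the data.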

Additional observations from a re-analysis of the deposited data

Results flagged for a closer look

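For 3 members the strain effect was not the same at 20 °C as at 25 °C by the interaction test in limma. The difference of log2 fold changes was 1.341 for miR-8196a-3p, 1.124 for miR-8196b-3p and -0.808 for miR-8199-5p. Growth time also differed between temperatures, 72 h at 20 °C and 54 h at 25 °C, and the effects of the 2 cannot be told apart.

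In groups of 4 libraries at 25 °C, 1 library stood apart from the other 3 in 3 of 35 groups examined by Dixon's criterion, where chance gives about 1 in 20. miR-8193-5p was at 0.05 rpm in mutant replicate 2 and at 0 in the others, a difference of a single read. miR-8196a-3p was at 0.33 rpm in wild-type replicate 1 and at 0.26 to 0.27 rpm in the others. miR-8208-5p was at 0.27 rpm in wild-type replicate 2 and at 0.13 to 0.14 rpm in the others.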

How the results depend on the processing

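Members lower at 20 °C went from 0 to 3 with no limit on abundance, and at 25 °C from 0 to 7, or to 1 with scaling to all piRNAs. Members higher at 20 °C went from 3 to 1 with CSR-class size factors or a variance model without trend, and from 1 to 3 leaving out a library. At 25 °C they went from 4 to 10 with no limit and to 1 at a mean of 5 rpm. With no limit, the count lower at 20 °C went from 3 to 1 without trend, and that higher from 3 to 6 with rpm as deposited, to 1 with 1 rpm added, to 0 without trend and 1 to 4 leaving out a library. At 25 °C the count higher went from 10 to 16 with rpm as deposited or CSR-class factors. More positive effects at 25 °C went from 2 to 1 with a mean of 5 rpm, piRNA scaling or a library left out (1 to 2), and the more negative one from 1 to 0 with CSR-class factors. Changed iso-miR ratios went from 0 to 1 at 20 °C and 1 to 2 at 25 °C with 1 rpm added, and from 0 to 1 at 25 °C leaving out a library.

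Signs turned for miR-8199-5p at 25 °C (0.53 with rpm as deposited, 0.81 with CSR-class factors, -0.16 to 0.055 leaving out a library), for miR-8198-3p with piRNA scaling (-0.067 at 25 °C, interaction -0.16) or a library left out at 20 °C (-0.30 to 0.24), for miR-8202-5p at 20 °C (-0.091 to 0.54) and for the iso-miR ratio of miR-8196a-3p (0.77 at 25 °C with 1 rpm added, -0.028 to 0.43 at 20 °C leaving out a library). The causes were not tested.

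Replicate numbers did not pair the libraries: deviations of same-numbered libraries correlated at -0.15 to 0.10 at 20 °C and -0.03 to 0.03 at 25 °C. With a replicate block, the iso-miR ratio calls at 25 °C went from 1 to 0 (miR-8196a-3p, adjusted p = 0.0859), and the counts higher at 20 °C and 25 °C were 3 and 4.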
